A study of Mus musculus with 16 samples.

Results

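The liver genes of the acute phase described here are 10 of the 25719 genes in the deposited table: Saa1, Saa2, Saa3 and Saa4 (serum amyloid A), Orm1, Orm2 and Orm3 (orosomucoid), Hp (haptoglobin), Hpx (hemopexin) and Apcs (serum amyloid P component). They were taken by gene name, and each name matched 1 row. Whole liver was sequenced from 16 male mice, 1 library per mouse, that were 8 to 12 weeks old and received their diet for 3 weeks. Wild type (WT) C57BL6J mice ate a normal chow diet (NCD; 4 mice, numbered 1, 2, 3 and 5) or a steatosis-steatohepatitis diet rich in fat, fructose and cholesterol (SSD; 5 mice). Klrk1-/- mice, which lack the lymphocyte receptor NKG2D in every cell that would carry it, ate NCD (4 mice) or SSD (3 mice). The labels name no treatment other than the diet in any group. The lines were kept as breeding colonies, and no source used here says that WT and Klrk1-/- mice were littermates, so genotype and colony cannot be told apart. The labels do not place mice in cages or batches, and the p-values measure the spread between these mice.

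The acute phase response is a change in the plasma proteins that the liver secretes during infection or injury. IL-6 acts on hepatocytes through gp130 and STAT3, IL-1 and TNF act through NF-kB, and C/EBP factors carry part of both signals to the promoters. SAA1 and SAA2 ride on high density lipoprotein and are the classical inducible forms. SAA3 is also made outside hepatocytes, for instance by macrophages and adipocytes, and SAA4 is the constitutive form. Orosomucoids are abundant plasma glycoproteins that bind small lipophilic molecules, haptoglobin binds free hemoglobin, hemopexin binds heme, and serum amyloid P component is a pentraxin that is an acute phase protein in mice.

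Reads on genes numbered 19892025 to 28936707 per mouse. The values below are normalized counts, that is, the reads of a gene divided by 1 factor per mouse. Klrk1 itself, which checks the labels, lay between 20.1 and 71.1 normalized counts in the WT mice and between 0.966 and 8.71 in the Klrk1-/- mice, without overlap. In whole liver, fewer cells of a type and less RNA per cell cannot be told apart. The members together took 0.976 to 1.22% of all normalized counts in the WT mice on NCD, 0.951 to 1.85% in the WT mice on SSD, 0.791 to 0.895% in the Klrk1-/- mice on NCD and 0.683 to 0.784% in the Klrk1-/- mice on SSD.

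Of the 10 members, 7 were called in at least 1 comparison of diet or genotype, and Saa4, Hp and Hpx in none. A gene was called when limma put its p, adjusted over every gene in the fit, under 0.05 and its change past 2-fold. In WT mice, SSD feeding raised Saa3 and lowered Saa1 and Orm1, which is 3 of the 10 members, beside 9.01% of the 13091 genes tested. In Klrk1-/- mice, 6 members were called, beside 5.46% of 12904 genes: Saa3 rose, and Saa1, Saa2, Orm1, Orm3 and Apcs fell. Between genotypes on SSD, 4 members were called, beside 1.15% of 13116 genes, and Saa1, Saa2, Saa3 and Orm2 were all lower in the Klrk1-/- mice. On NCD, Saa1 and Saa2 were lower in the Klrk1-/- mice, which is 2 members beside 1.70% of 12845 genes. Comparisons that share a group of mice are not independent of each other. The median log2 fold change of the members was -0.61 and -1.07 for the diet in WT and Klrk1-/- mice, -1.03 for the genotype on SSD and -0.34 on NCD, where the median of all genes tested lay between -0.002 and 0.002.

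**Figure D1:**
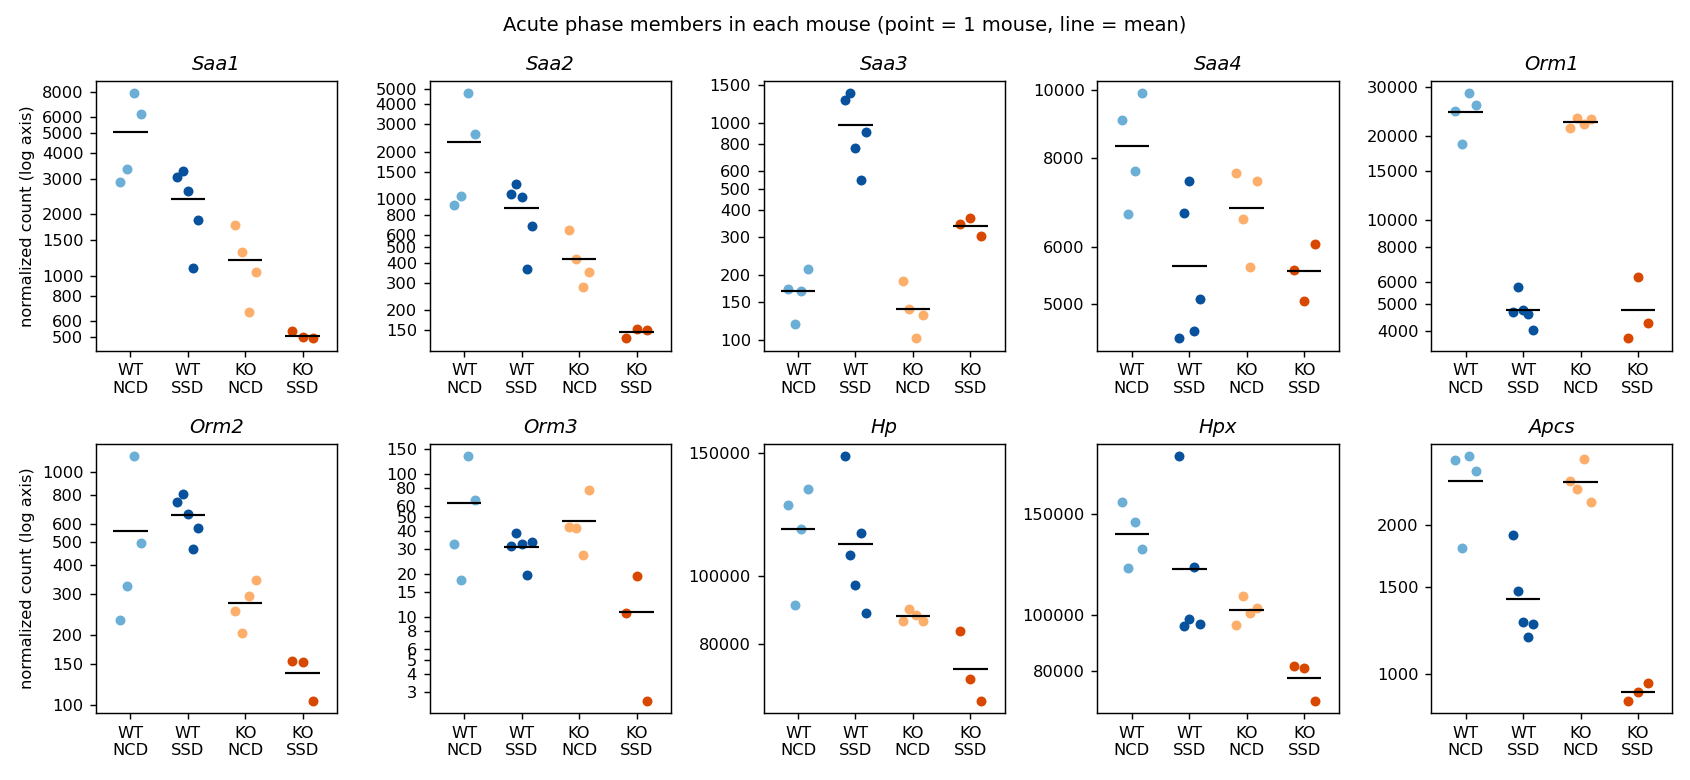
Normalized counts (vertical log axis, a scale of its own for each gene) of the 10 members in every mouse, with the 4 groups along the horizontal axis, 1 point per mouse and a line at each group mean. Saa1 and Saa2 step down from WT to Klrk1-/- mice on either diet, Saa3 is high in the SSD groups, and Orm1 is low in them.

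The 4 serum amyloid A genes lie together on chromosome 7 of GRCm39: Saa3 (ENSMUSG00000040026, - strand, 46361422 to 46365124), Saa4 (ENSMUSG00000040017, - strand, 46377422 to 46382027), Saa1 (ENSMUSG00000074115, - strand, 46389921 to 46392404) and Saa2 (ENSMUSG00000057465, + strand, 46401214 to 46403737). All are annotated as protein coding. Saa1 and Saa2 are the closest pair. Their coding sequences of 369 bases were identical at 351 positions (95.12%), where Saa1 and Saa3 reached 75.86% and Saa1 and Saa4 65.23% of the aligned bases. Of their 18 differences, 11 fall between coding bases 50 and 149, shown here because reads of 100 bases from this stretch can be told apart (GENCODE M39 transcripts on GRCm39, 5′ to 3′, capitals mark the bases that differ).
Saa1: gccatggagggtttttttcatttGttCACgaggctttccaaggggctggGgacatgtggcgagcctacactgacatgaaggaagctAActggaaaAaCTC
Saa2: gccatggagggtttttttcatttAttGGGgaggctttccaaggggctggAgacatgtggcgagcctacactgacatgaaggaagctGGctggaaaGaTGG
None of the 658 windows of 100 bases, the read length, in the main Saa1 transcript occurred in any Saa2 transcript, and 3 of the 553 windows in the main Saa2 transcript (0.543%) occurred in a Saa1 transcript. How reads that fit more than 1 gene were counted is not given in the sources used here.

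Saa1 stood at 2887, 3354, 7853 and 6215 normalized counts in the WT mice on NCD and at 3039.7, 3284, 2616, 1094 and 1873 in the WT mice on SSD. In the Klrk1-/- mice it stood at 1781, 1307, 664 and 1048 on NCD and 537, 499.5 and 494 on SSD. Every Klrk1-/- mouse was below every WT mouse on the same diet, and 3 of the 5 WT mice on SSD lay below all WT mice on NCD. The genotype difference in log2 was -2.05 (standard error 0.32, adjusted p = 0.00241) on NCD and -2.12 (standard error 0.30, adjusted p = 0.00885) on SSD, that is 4.13-fold and 4.34-fold lower in Klrk1-/- mice. Exact two-sided permutation gave p = 0.0286 and p = 0.0357, the smallest that 4 mice against 4 and 5 against 3 allow, and 0.0914 each after adjustment over the 40 tests of members. SSD lowered Saa1 in both genotypes, with log2 fold changes of -1.07 (standard error 0.35, adjusted p = 0.0314) in WT and -1.15 (standard error 0.24, adjusted p = 0.00479) in Klrk1-/- mice, and the test of the difference between them gave -0.07 (standard error 0.50, adjusted p = 0.954). The exact permutation p of the diet was 0.0635 in WT mice, above the smallest possible 0.0159, and 0.0571 in Klrk1-/- mice, the smallest possible. The WT call depended on single mice: without NCD mouse 3 or 5 or SSD mouse 4 or 5 its adjusted p was 0.0994, 0.0864, 0.0588 and 0.0541. With equal totals for every mouse the adjusted p was 0.101, and with replicate number as a block it was 0.0909. In Klrk1-/- mice the diet change fell under the 2-fold limit with equal totals (-0.89) and without NCD mouse 1 (-0.93). Leaving out SSD-fed Klrk1-/- mouse 1 or 3 ended the call between genotypes on SSD by the adjusted p (0.0547 and 0.0531), with log2 differences of -2.16 and -2.10 that hardly moved.

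Saa2 had the lower level of the pair in every mouse. The WT mice read 923, 1051, 4666 and 2570.0 normalized counts on NCD and 1088, 1251, 1035, 366 and 678 on SSD, and the Klrk1-/- mice 639.9, 421, 282 and 348 on NCD and 133, 152 and 152 on SSD. As for Saa1, the genotypes did not overlap on either diet. NCD-fed WT mouse 3 was the highest of all mice for both genes. Saa2 was 4.57-fold lower in Klrk1-/- mice on NCD (log2 -2.19, standard error 0.42, adjusted p = 0.00708) and 5.55-fold lower on SSD (log2 -2.47, standard error 0.34, adjusted p = 0.00752). Without SSD-fed Klrk1-/- mouse 1 the latter missed the threshold (adjusted p = 0.0543) at a log2 difference of -2.41. SSD lowered it in Klrk1-/- mice (log2 -1.47, standard error 0.22, adjusted p = 0.000482). In WT mice the diet difference was -1.19 (standard error 0.47, adjusted p = 0.0664) and was not called by limma, whereas edgeR (adjusted p = 0.0351) and DESeq2 (adjusted p = 0.0408) on the recovered reads called it. Without 1 mouse the limma difference ranged from -1.52 to -0.74, with adjusted p from 0.0388 to 0.198.

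Saa3 rose with SSD, where Saa1 fell. Its normalized counts were 172, 119, 169 and 212 in the WT mice on NCD and 1284, 1372, 769, 549 and 914 on SSD. The Klrk1-/- mice had 188, 139, 102 and 130.4 on NCD and 344, 365 and 301 on SSD. In both genotypes all mice on SSD exceeded all mice on NCD, and on SSD the Klrk1-/- mice were all below the WT mice, while on NCD the genotypes overlapped. SSD raised Saa3 5.59-fold in WT mice (log2 2.48, standard error 0.25, adjusted p = 2.53e-05) and 2.44-fold in Klrk1-/- mice (log2 1.29, standard error 0.18, adjusted p = 0.000274). The level on SSD was 2.75-fold lower in Klrk1-/- mice (log2 -1.46, standard error 0.26, adjusted p = 0.0213). On NCD the log2 difference was -0.27 (standard error 0.20, adjusted p = 0.385). The interaction, which asks if the rise was unequal in the genotypes, gave -1.19 (standard error 0.35, adjusted p = 0.111) in limma, short of the threshold, while DESeq2 gave -1.28 (adjusted p = 0.0208). Each of the 3 SSD-fed Klrk1-/- mice mattered to the call between genotypes: without mouse 1, 2 or 3 the adjusted p was 0.0975, 0.0730 and 0.0971, with log2 differences of -1.48, -1.52 and -1.38.

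Saa4, the constitutive form, was not called in any comparison. Its normalized counts were 9068, 6692, 7691 and 9882 in the WT mice on NCD and 4465, 6695, 7427, 4577 and 5073 on SSD, and 7635, 6572, 5634 and 7432 and 5572, 5034 and 6068 in the Klrk1-/- mice on NCD and SSD. The groups overlapped in all 4 comparisons. SSD lowered it in WT mice by less than the 2-fold limit (log2 -0.58, standard error 0.17, adjusted p = 0.0202), though not with equal totals for every mouse (-0.23), and in Klrk1-/- mice the difference was -0.29 (standard error 0.11, adjusted p = 0.0733). Between genotypes the log2 difference was -0.28 (standard error 0.13, adjusted p = 0.162) on NCD and 0.00 (standard error 0.17, adjusted p = 0.992) on SSD.

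The start regions of Saa1, Saa2 and Saa3 are shown because the first pair fell with SSD in Klrk1-/- mice while Saa3 rose. A promoter sequence was found for 8 of the 10 members (RefSeq, GRCm38.p6), all but Orm1 and Hp, and the 250 bases before the start were searched on both strands for GGG and CC with any 5 bases between them (NF-kB), for TTNNGNAA (C/EBP) and for TTCNNNGAA (STAT). Capitals mark the matches.
Saa1, chr7:46742981-46743230, minus strand: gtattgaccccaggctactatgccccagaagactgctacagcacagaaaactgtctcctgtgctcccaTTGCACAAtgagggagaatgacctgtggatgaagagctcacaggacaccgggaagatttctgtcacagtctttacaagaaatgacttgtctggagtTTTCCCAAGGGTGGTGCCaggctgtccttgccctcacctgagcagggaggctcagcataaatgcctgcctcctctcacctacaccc
Saa2, chr7:46751583-46751832, plus strand: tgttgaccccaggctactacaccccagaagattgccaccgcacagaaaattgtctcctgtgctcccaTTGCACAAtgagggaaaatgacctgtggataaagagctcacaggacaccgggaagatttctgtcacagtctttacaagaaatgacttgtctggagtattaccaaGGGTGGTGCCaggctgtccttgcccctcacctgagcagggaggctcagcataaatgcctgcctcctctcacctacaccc
Saa3, chr7:46715677-46715926, minus strand: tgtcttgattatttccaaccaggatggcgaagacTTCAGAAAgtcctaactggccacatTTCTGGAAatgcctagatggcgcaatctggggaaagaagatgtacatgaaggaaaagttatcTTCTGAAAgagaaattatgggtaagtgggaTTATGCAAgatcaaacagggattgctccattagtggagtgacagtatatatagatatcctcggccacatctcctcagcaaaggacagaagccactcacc
Saa1 and Saa2 were identical at 94.82% of the aligned bases, and Saa1 and Saa3 at 48.94%. The promoters of Saa1 and Saa2 share an NF-kB match, GGGTGGTGCC, which ends 69 bases before the start of Saa1 and 70 before that of Saa2. They also share a C/EBP match, TTGCACAA, and Saa1 has a second one, TTTCCCAA, that runs directly into its NF-kB match. Saa3 held 4 C/EBP matches and none of the other 2 motifs. Of 32851 promoters of this length, 45.8% held the NF-kB letters, 36.8% the C/EBP letters and 7.0% the STAT letters. A match to NF-kB or C/EBP is thus common, and the shares do not cover repeated matches. Any match describes the sequence only. Among the other members, Saa4 held 1 NF-kB and 2 C/EBP matches, Orm2 and Hpx 2 C/EBP matches each, Orm3 1 C/EBP match, and Apcs the only STAT match, TTCTAGGAA.

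The 3 orosomucoid genes lie on the plus strand of chromosome 4 of GRCm39, Orm1 (ENSMUSG00000039196) from 63262797 to 63266400, Orm3 (ENSMUSG00000028359) from 63274399 to 63277748 and Orm2 (ENSMUSG00000061540) from 63280686 to 63284115. Orm1 and Orm2 were identical at 561 of 624 coding bases (89.9%), Orm1 and Orm3 at 86.06% and Orm2 and Orm3 at 87.98%. Coding bases 138 to 237 of Orm1 and Orm2 hold 22 of their 63 differences and are shown because the fall of Orm1 with SSD was not seen in Orm2 in WT mice (GENCODE M39 on GRCm39, 5′ to 3′, capitals mark the bases that differ).
Orm1: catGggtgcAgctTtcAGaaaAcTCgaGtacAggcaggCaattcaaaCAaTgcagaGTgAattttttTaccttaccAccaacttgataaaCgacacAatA
Orm2: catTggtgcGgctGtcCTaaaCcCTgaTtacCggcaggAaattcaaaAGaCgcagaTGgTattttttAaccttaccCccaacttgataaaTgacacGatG
Elsewhere they are closer. Of the 676 windows of 100 bases in Orm2, 54 (7.99%) occurred in Orm1, which is the more abundant gene, and 47 of 726 (6.47%) the other way. The levels of Orm2 are uncertain for that reason, by an amount that was not measured.

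Orm1 fell with SSD in both genotypes. The WT mice on NCD had 24724, 18841, 28569.7 and 25833 normalized counts, and those on SSD had 4689, 5771, 4782, 4606 and 4053. Among Klrk1-/- mice the counts were 21534, 23277, 22085 and 23178 on NCD and 3774, 6287 and 4297 on SSD. All mice on SSD were far below all mice on NCD, and the genotypes overlapped on both diets. The fall was 5.10-fold in WT mice (log2 -2.35, standard error 0.13, adjusted p = 2.26e-07, exact two-sided permutation p = 0.0159, the smallest possible) and 4.82-fold in Klrk1-/- mice (log2 -2.27, standard error 0.14, adjusted p = 6.18e-07). The log2 difference between genotypes was -0.02 (standard error 0.16, adjusted p = 0.947) on SSD and -0.11 (standard error 0.12, adjusted p = 0.586) on NCD, and the interaction was 0.08 (standard error 0.21, adjusted p = 0.863).

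Orm2 showed another pattern. In the WT mice it read 232, 325, 1177 and 495 normalized counts on NCD and 749, 809, 663, 469.9 and 575 on SSD. In the Klrk1-/- mice it read 254, 204, 293 and 346 on NCD and 155, 153 and 104 on SSD. NCD-fed WT mouse 3 stood above all other mice, and the 3 SSD-fed Klrk1-/- mice were the lowest of the 16. On SSD Orm2 was 4.73-fold lower in Klrk1-/- mice (log2 -2.24, standard error 0.19, adjusted p = 0.000395), a call that held without any 1 of the 8 mice. On NCD the difference of -0.76 (standard error 0.37, adjusted p = 0.181) did not pass the threshold, nor did it without 1 mouse (-1.09 to -0.31, adjusted p 0.0716 to 0.406). The diet difference in WT mice was 0.48 (standard error 0.36, adjusted p = 0.324), with overlap, and 0.16 to 0.94 without 1 mouse (adjusted p 0.0146 to 0.761). In Klrk1-/- mice the diet difference was -0.99 (standard error 0.19, adjusted p = 0.00239), where all SSD-fed mice were lower but the change stopped short of the 2-fold limit. It passed that limit and was called without NCD mouse 1 or 2 (-1.02 and -1.13) or SSD mouse 1 or 2 (-1.09 and -1.08). The interaction of -1.48 (standard error 0.49, adjusted p = 0.146) was not called. Without NCD-fed WT mouse 3 it was -1.93 (adjusted p = 0.0181).

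Orm3 was the least abundant member. Its normalized counts were 32.6, 18.1, 134 and 66.2 in the WT mice on NCD, 31.2, 38.9, 32.4, 19.5 and 33.5 on SSD, and 42.5, 42.3, 27.4 and 77.5 and 10.6, 19.3 and 2.57 in the Klrk1-/- mice on NCD and SSD. As few as 3 reads stood behind the lowest value. The Klrk1-/- mice on SSD were all below the other 3 groups except for a single WT mouse on NCD, which had 18.1. Orm3 fell with SSD in Klrk1-/- mice (log2 -2.26, standard error 0.52, adjusted p = 0.00735). Without 1 mouse the fall was -2.81 to -1.56 (adjusted p 0.00234 to 0.0239), and the smallest under any alternative was -1.48. In WT mice the diet difference was -0.65 (standard error 0.46, adjusted p = 0.296), and -1.1 to -0.16 without 1 mouse. Between genotypes on SSD the groups did not overlap, but limma did not call the difference of -1.73 (standard error 0.49, adjusted p = 0.0855), and DESeq2 did (-1.51, adjusted p = 0.0308). Without 1 mouse the limma difference was -2.28 to -1.03 (adjusted p 0.0743 to 0.209). On NCD the genotype difference over all mice was -0.12 (standard error 0.49, adjusted p = 0.892).

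Haptoglobin and hemopexin, the hemoglobin and heme scavengers, were the most abundant members, and neither was called in any comparison. Hp (chromosome 8, ENSMUSG00000031722, - strand, 110301760 to 110305804) had 126394, 90979, 116972 and 133579 normalized counts in the WT mice on NCD and 148759, 107429, 97029, 115203 and 88601 on SSD. The Klrk1-/- mice had 86174, 89899, 87957 and 86371 on NCD and 83399.5, 71242 and 66218 on SSD. Every Klrk1-/- mouse was below every WT mouse on the same diet, by a log2 difference of -0.40 (standard error 0.13, adjusted p = 0.0634) on NCD and -0.58 (standard error 0.19, adjusted p = 0.119) on SSD, neither past the threshold. With SSD the difference was -0.08 (standard error 0.19, adjusted p = 0.775) in WT mice, where it turned to 0.27 with equal totals for every mouse, and -0.26 (standard error 0.11, adjusted p = 0.106) in Klrk1-/- mice.

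Hpx (chromosome 7, ENSMUSG00000030895, - strand, 105240820 to 105249344) read 157211, 120931, 145144 and 130521 normalized counts in the WT mice on NCD and 189429.7, 95656, 98402, 121518 and 96596 on SSD, against 95983, 107916, 100968 and 102799.9 and 81621, 80922 and 70782 in the Klrk1-/- mice. SSD-fed WT mouse 1 was the highest for both Hp and Hpx. The Klrk1-/- mice were again below all WT mice on the same diet. Hpx passed the adjusted p but not the fold limit for the genotype on NCD (-0.44, standard error 0.12, adjusted p = 0.0373) and for the diet in Klrk1-/- mice (-0.39, standard error 0.11, adjusted p = 0.02), the latter not with equal totals (-0.14). Without 1 mouse the adjusted p in limma was 0.0325 to 0.0924 for the former and 0.0274 to 0.07 for the latter. The difference was -0.58 (standard error 0.23, adjusted p = 0.183) for the genotype on SSD and -0.25 (standard error 0.22, adjusted p = 0.399) for the diet in WT mice, which turned to 0.10 with equal totals.

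Apcs (chromosome 1, ENSMUSG00000026542, - strand, 172721528 to 172722608) went down with the diet. Its normalized counts were 2715, 1795, 2765 and 2576 in the WT mice on NCD and 1908, 1468, 1275, 1187 and 1259 on SSD. In the Klrk1-/- mice they were 2455, 2367, 2732 and 2231 on NCD and 879, 916 and 955 on SSD. On NCD the genotypes lay on top of each other (log2 0.01, standard error 0.13, adjusted p = 0.977). SSD lowered Apcs 2.66-fold in Klrk1-/- mice (log2 -1.41, standard error 0.09, adjusted p = 4.94e-07) and 1.74-fold in WT mice (log2 -0.80, standard error 0.16, adjusted p = 0.00272), where the change passed the adjusted p but not the fold limit and was -0.45 with equal totals. The 3 SSD-fed Klrk1-/- mice were below all other mice. Their difference from SSD-fed WT mice was -0.61 (standard error 0.14, adjusted p = 0.0496), under the fold limit, and without 1 mouse the adjusted p was 0.0111 to 0.193. The interaction gave -0.62 (standard error 0.20, adjusted p = 0.146).

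**Figure D2:**
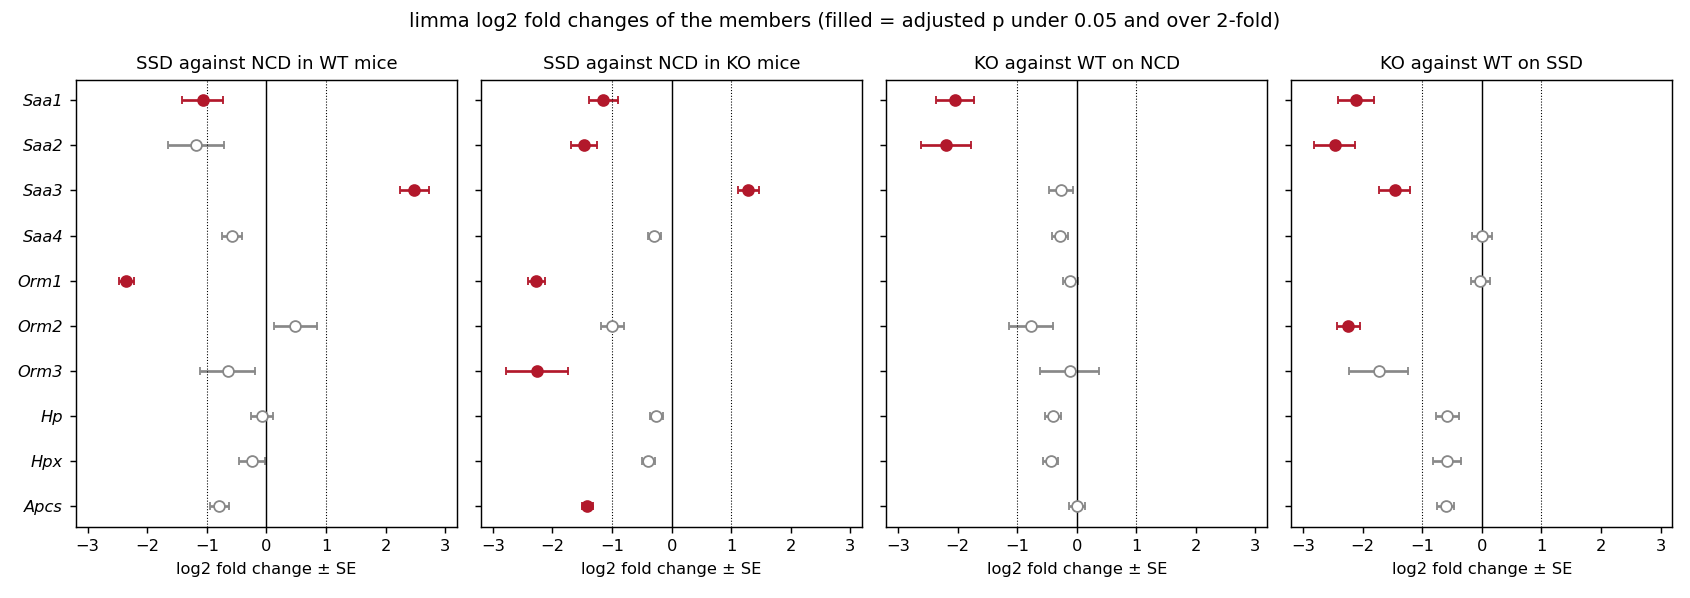
Log2 fold changes (horizontal axis) with standard errors of the 10 members in the 4 pairwise comparisons, from limma. Filled points were called, open points were not, and dotted lines mark the 2-fold limit; Orm1 is at -2.35 and -2.27 for the diet but at -0.02 for the genotype on SSD, while Saa1 is near -2.05 for the genotype on either diet.

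Over the members, 0 of 10 were called in limma's test of whether the diet acted differently in the genotypes, with 3 (Saa3, Orm2 and Apcs) at an unadjusted p under 0.05 (17.3% of all genes), 0 called by edgeR and 1 (Saa3) by DESeq2, beside 0.536% of 13068 genes called in limma. Groups did not overlap for 2 members (Saa3 and Orm1) in the diet comparison of WT mice, where 29.0% of all genes tested did not overlap. They did not overlap for 9 members, all but Saa4, for the diet in Klrk1-/- mice (37.6% of all genes), for 8 members, all but Saa4 and Orm1, between genotypes on SSD (17.9%), and for Saa1, Saa2, Hp and Hpx between genotypes on NCD (19.3%).

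Within a mouse, the ratio of 2 paralogs does not depend on the factor of the mouse. In reads, Saa1 exceeded Saa2 by 1.68 to 3.19 times in the WT mice on NCD, 2.53 to 2.99 on SSD, 2.35 to 3.11 in the Klrk1-/- mice on NCD and 3.25 to 4.03 on SSD. The same mice spanned 494 to 7853 normalized counts of Saa1 and 133.3 to 4666.5 of Saa2. The mean log2 ratio of Saa1 to Saa2 was 0.35 higher in Klrk1-/- than in WT mice on SSD (standard error 0.11, exact two-sided permutation p = 0.0357, 0.0714 adjusted over the 16 ratio tests). With SSD it was 0.32 higher in Klrk1-/- mice (standard error 0.13, exact permutation p = 0.0571, the smallest possible), also without overlap. For the diet in WT mice and the genotype on NCD it differed by 0.11 and 0.15, with overlap.

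Saa3 gained on Saa1 with SSD. The log2 ratio of Saa3 to Saa1 was -4.81 ± 0.60 (SD, n = 4) in the WT mice on NCD, -1.26 ± 0.31 (SD, n = 5) on SSD, -3.04 ± 0.25 (SD, n = 4) in the Klrk1-/- mice on NCD and -0.60 ± 0.14 (SD, n = 3) on SSD. No 2 groups that were compared overlapped. SSD raised the ratio by 3.56 in WT mice and by 2.43 in Klrk1-/- mice, and it was higher in Klrk1-/- than in WT mice by 1.78 on NCD and 0.66 on SSD. The exact two-sided permutation p was the smallest possible each time (0.0159, 0.0571, 0.0286 and 0.0357).

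The ratio of Orm1 to Orm2 split the WT mice by diet and, on SSD, the genotypes. Orm1 had 24.3 to 106.8 times the counts of Orm2 in the WT mice on NCD and 6.26 to 9.80 times on SSD. In the Klrk1-/- mice it had 67.1 to 114.1 times on NCD and 24.4 to 41.4 times on SSD. The log2 ratio fell by 2.84 with SSD in WT mice (standard error 0.45, exact permutation p = 0.0159) and by 1.27 in Klrk1-/- mice (standard error 0.30, exact permutation p = 0.0571), and on SSD it was 2.22 higher in Klrk1-/- mice (standard error 0.27, exact permutation p = 0.0357). On NCD the genotypes overlapped, with a difference of 0.66 (exact permutation p = 0.2). The log2 ratio of Orm3 to Orm1 rose by 1.70 with SSD in WT mice (exact permutation p = 0.0317) and differed by 0.01 in Klrk1-/- mice (exact permutation p = 1), and on SSD the difference of Klrk1-/- from WT mice was -1.71 (exact permutation p = 0.0357). After adjustment over the 16 tests the smallest p of any ratio was 0.0714.

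**Figure D3:**
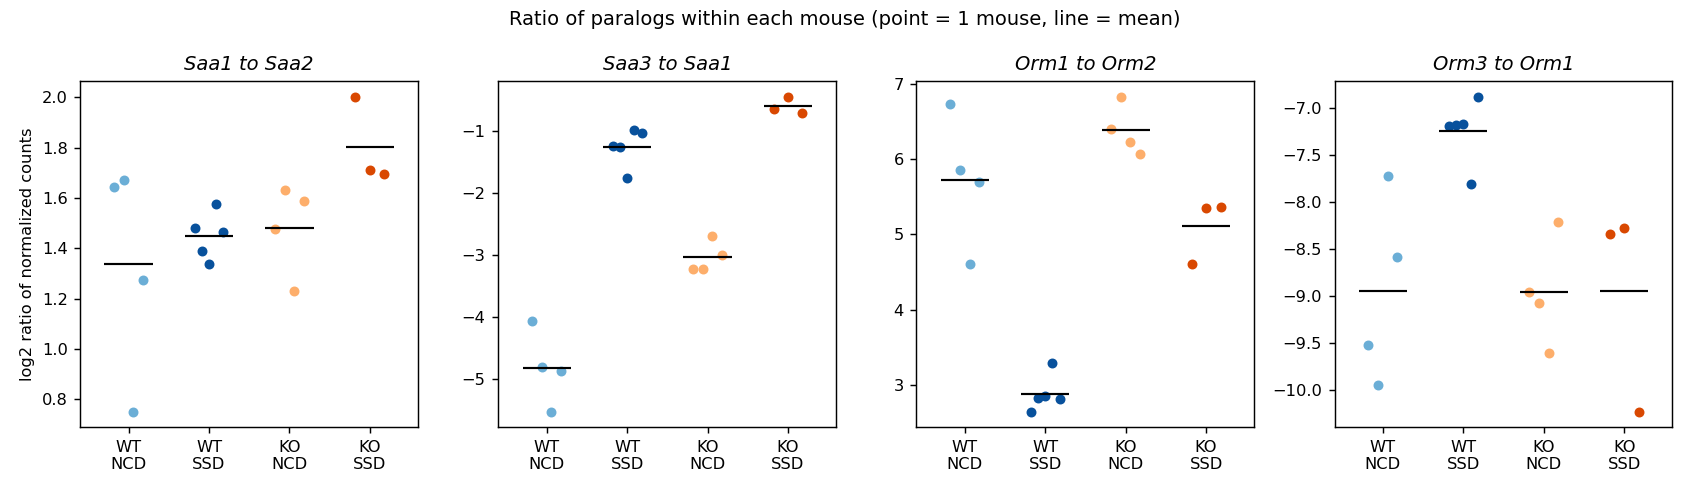
Log2 ratios of normalized counts (vertical axis) of 4 pairs of paralogs within each mouse, by group, with 1 point per mouse and a line at the mean. The ratio of Saa1 to Saa2 stays between 0.75 and 2.002 in all mice, whereas that of Saa3 to Saa1 goes from a mean of -4.81 in WT mice on NCD to -1.26 on SSD.

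Compared per kilobase of the deposited gene length, the same members stood at the top of each group. That length was 1528 bases for Saa1 and 1053 for Saa2, whose main transcripts have 757 and 652. For Saa3 it was 1083 and for Saa4 2094, close to their main transcripts of 1007 and 2118. Transcript lengths would thus place Saa1 and Saa2 higher against Saa3 and Saa4 than stated here. Hpx and Hp led in every group, at 132363 ± 15282 and 121224 ± 19296 normalized counts per kb (SD, n = 4) in the WT mice on NCD, with differences within the SDs in all groups but the Klrk1-/- mice on NCD (97435 ± 4712 and 90778 ± 1790.4), whose means differed by slightly more. On SSD the mean of Hp was just above that of Hpx, at 115445 and 115029 in WT mice and 76290 and 74355 in Klrk1-/- mice. Orm1 came next with 31602 ± 5289.5 and 6168 ± 803 (SD, n = 5) in the WT mice on NCD and SSD. By the means over the deposited lengths Saa4 followed Orm1 in each group, an order that for Saa4 and Saa1 depends on the length used. In the WT mice on NCD the 3979.5 ± 678 of Saa4 and the 3323 ± 1547 of Saa1 (SD, n = 4) differed by less than the SD of Saa1. In mouse 3 of that group Saa1 and Saa2 were above Saa4. On NCD, Saa3 was low in WT mice at 155 ± 35.2, just above Orm3. On SSD it reached 903 ± 320.1 in WT mice, with Orm2 at 843 ± 175 and Saa2 at 839 ± 339 beside it, differences smaller than their SDs. In the Klrk1-/- mice on SSD, Saa3 (311 ± 30.3) and Saa1 (334 ± 15.4; SD, n = 3) stood side by side by the deposited lengths only.

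Mice of the same group also differed together. After subtracting the group means of log2(normalized count + 1), Saa1 and Saa2 correlated over the 16 mice with Pearson's r = 0.95 (permutation within groups, 100000 resamples, p = 4e-05, 0.0018 adjusted over the 45 pairs of members) and Spearman's rho = 0.96 (p = 7e-05, adjusted 0.0031). Without the 2 mice farthest from the median of Saa1, r was 0.96. No other pair passed the adjustment. The next were Hp with Hpx (r = 0.81, permutation p = 0.0047, adjusted 0.071, rho = 0.77, p = 0.0035, adjusted 0.053, r = 0.67 without 2 mice), Saa1 with Saa3 (r = 0.78, permutation p = 0.0036, adjusted 0.071, rho = 0.72, p = 0.0098, adjusted 0.11, r = 0.62 without 2 mice) and Orm2 with Orm3 (r = 0.76, permutation p = 0.008, adjusted 0.09, rho = 0.76, p = 0.0031, adjusted 0.053, r = 0.74 without 2 mice). All values of a mouse share its library and its factor, and with every mouse at the same total the 4 values of r were 0.95, 0.85, 0.81 and 0.75.

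The genes outside the family that varied most like a member within groups were sought among 10948 genes with a mean of at least 50, as a description over 16 mice. They were Dip2a (r = 0.852), Ncoa5 (0.826) and Mphosph6 (0.804) for Saa1, and Eef1akmt1 (0.841), Mrps26 (0.797) and Smarce1 (0.785) for Saa3. For Orm2 they were Etv6 (0.836), Rad9b (0.828) and Atp11a (0.824). Colec11 (0.943), Ncf4 (0.932) and Ywhaz (0.927) were most like Hp, and Icam1 (0.841), Mt2 (0.841) and Gyg (0.840) most like Apcs. Mt2, a metallothionein, is the only acute phase gene of the lists used here among these 15. None of these correlations was recomputed without a mouse. SSD-fed WT mouse 1, the highest for Hp, also differed most from the mice of its group in its reads over all genes. Its chi-square per gene against each of them was 69.4 to 95.59, and no other pair of mice within a group exceeded 61.87.

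**Figure D4:**
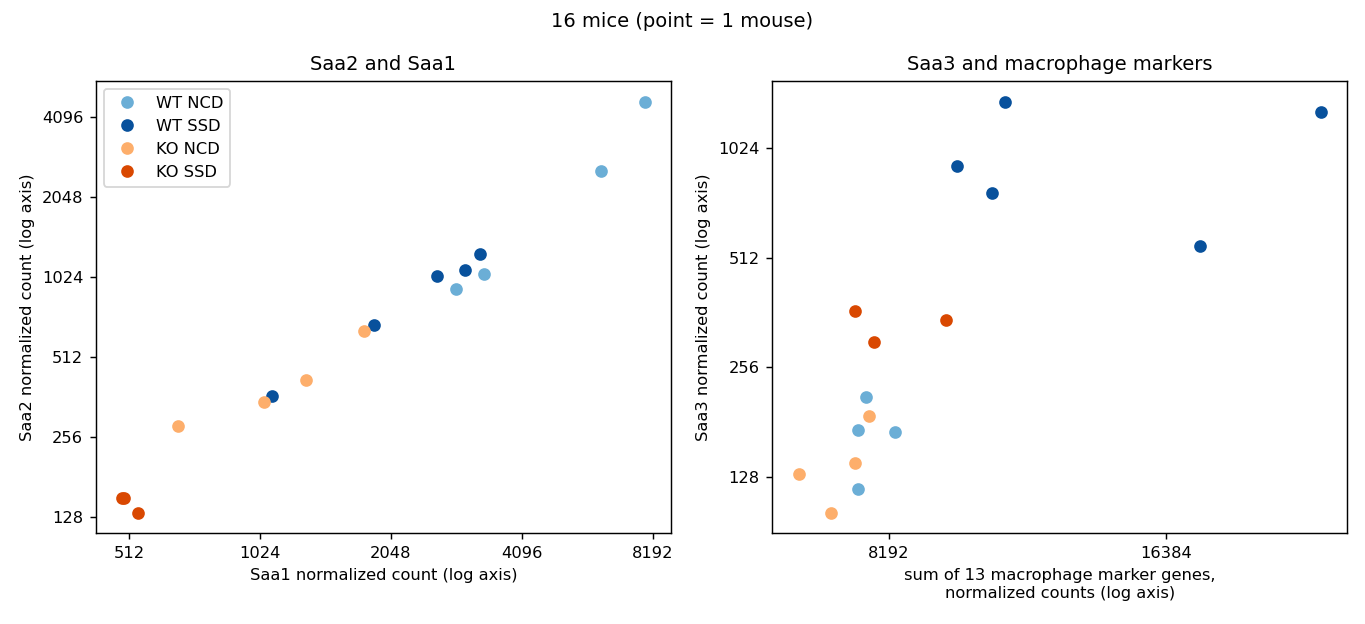
Left, Saa2 against Saa1, and right, Saa3 against the summed level of 13 Kupffer cell and macrophage marker genes, in normalized counts on log axes with 1 point per mouse, coloured by group. Saa1 and Saa2 fall along 1 line over all groups (r = 0.95 within groups), and the 5 SSD-fed WT mice lie above all other mice for both Saa3 and the marker sum. Among those 5 mice the order by Saa3 differs from the order by the marker sum.

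Markers of other cell types moved with some of these groups, and their part in the results was not tested. Kupffer cell and macrophage markers (13 genes) summed to 7582 to 8314 normalized counts in the WT mice on NCD and 9717 to 24135 on SSD, and to 6539 to 7804 and 7537 to 9447 in the Klrk1-/- mice. The sum was thus higher in every WT mouse on SSD than in any other mouse, as for Saa3. Within that group the sum and Saa3 did not rank the mice alike. For mice 1 to 5 the sums were 24135, 10950, 10612, 17809 and 9717, and Saa3 was 1284, 1372, 769, 549 and 914. With limma, 5 of the 13 markers were called higher with SSD in WT mice, beside 6.11% of all genes. On SSD 3 were called lower in Klrk1-/- mice, beside 0.968% of all genes. Without SSD-fed WT mouse 1, which has the highest sum, the difference of Saa3 between genotypes on SSD was -1.34 (adjusted p = 0.0111), and the marker sums of the other 4 SSD-fed WT mice (9717 to 17809) still exceeded those of all Klrk1-/- mice on SSD. Monocyte markers (5 genes) summed to 167.1 to 249 on NCD and 237.6 to 993.8 on SSD in WT mice, against 196.5 to 238.9 and 223.1 to 251.4 in Klrk1-/- mice. Of 10 neutrophil markers 7 had a mean below 10 in each group, and Ly6g was at 0 in all mice. Adipocyte markers (6 genes) summed to 18.2 to 48.2 on NCD and 614.0 to 2663.8 on SSD in WT mice, and to 13.7 to 60.9 and 204.0 to 233.7 in Klrk1-/- mice. Of these, Lep was at 0 throughout and 4 or 5 had a mean below 10. Cidec, which fat-laden hepatocytes also express, rose with SSD in WT mice (log2 5.49, adjusted p = 4.53e-07) and was lower in Klrk1-/- mice on SSD (-2.12, adjusted p = 0.00833). Cfd, the complement protease adipsin, was also called higher with SSD in WT mice (3.44, adjusted p = 0.0351), with overlap between the groups. Hepatocyte markers (10 genes) summed to 2639651 to 2980826 in the WT mice on NCD and 1678192 to 2201054 on SSD, and to 2602151 to 3425772 and 2362052 to 2521336 in the Klrk1-/- mice. Alb was the largest part of each sum (means of 1717360 and 1249783 in WT mice on NCD and SSD). Alb, Ttr, Apoa1, Apoa2 and Serpina1c are also on the acute phase lists below. With SSD in WT mice 4 of the 10 genes fell with an adjusted p under 0.05, beside 34.9% of all genes in either direction, and 1, Apob, was higher (log2 0.08). Erythroid markers (6 genes), of interest for the hemoglobin and heme binders, summed to 2245 to 9857 over the WT and 3970.4 to 15976.7 over the Klrk1-/- mice.

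Of 34 other genes listed here as positive acute phase genes, 32 were tested. The label rests on the list alone, and induction of each gene in mice was not checked. With SSD in WT mice 5 were called higher and 3 lower, beside 9.01% of all genes called. By the adjusted p alone 6 were higher and 19 lower, beside 34.9% of all genes in either direction, and the median log2 fold change was -0.43. The rises included Il1rn, the IL-1 receptor antagonist (log2 2.66, adjusted p = 0.000425), Lcn2, the iron-siderophore binder lipocalin-2 (2.46, adjusted p = 0.0122), and Mt2 (2.23, adjusted p = 0.0104), and the falls were Serpina1e (-2.56, adjusted p = 0.000121), Serpina3k (-1.79, adjusted p = 0.00028) and Serpina1d (-1.65, adjusted p = 1.55e-05), protease inhibitors of families whose members share sequence. In Klrk1-/- mice 1 was called higher and 3 lower with SSD, beside 5.46% of all genes, and by the adjusted p alone, which 29.4% of all genes passed, 3 were higher and 12 lower. Between genotypes on SSD, where 1.15% of all genes were called, the list held 1 call, Lcn2, lower in Klrk1-/- mice (-2.76, adjusted p = 0.043), with a median of 0.00. On NCD, where 1.70% of all genes were called, the list held 1 call as well, the metalloreductase Steap4, lower in Klrk1-/- mice (-1.43, adjusted p = 0.000737). There 7 genes had an adjusted p under 0.05, beside 13.1% of all genes, and all 7 were lower, among them Serpina3n (-0.62, adjusted p = 0.00102) and Lrg1 (-0.49, adjusted p = 0.00654). Crp, a minor acute phase gene in mice, differed by -0.35 (adjusted p = 0.072) on NCD and -0.27 (adjusted p = 0.253) on SSD. The 12 negative acute phase genes, such as Alb and Ttr, moved by less than the fold limit. With SSD 4 of them fell with an adjusted p under 0.05 in WT mice, beside 34.9% of all genes in either direction, and 3 in Klrk1-/- mice, beside 29.4%. The median log2 difference of the 12 genes between genotypes was 0.21 on SSD and 0.06 on NCD.

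**Figure D5:**
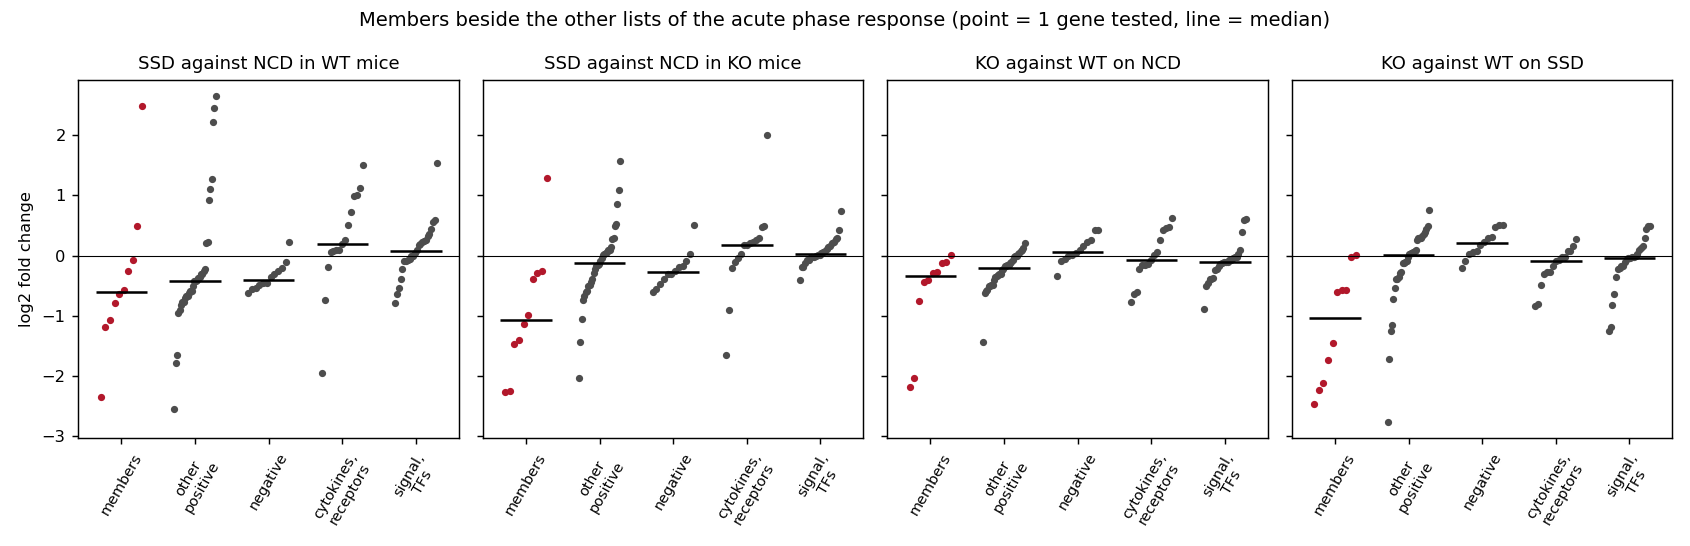
Log2 fold changes (vertical axis) of the members and of the other lists of the acute phase response in the 4 comparisons, with 1 point per gene tested and a line at the median of each list. Between genotypes on SSD the members' median lies at -1.03 and that of the other positive acute phase genes at 0.00.

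The signals upstream were measured too. Il6, the chief inducer of the response in hepatocytes, stayed at or below 1.33 normalized counts in every mouse and was not tested, and Il22 and Il17a were at 0 in all mice. Of 22 cytokine and receptor genes, 15 were tested. With SSD in WT mice the receptor Il1r1 (log2 1.005, adjusted p = 0.00407), the IL-22 receptor subunit Il22ra1 (1.502, adjusted p = 9.04e-05) and Il1a (1.12, adjusted p = 0.0003) were called higher and the LIF receptor Lifr (-1.95, adjusted p = 8.28e-07) lower. In Klrk1-/- mice Il22ra1 (2.01, adjusted p = 0.00249) and Lifr (-1.65, adjusted p = 5.15e-07) were called. Of all genes, 9.01% were called for the diet in WT mice and 5.46% in Klrk1-/- mice. Between genotypes no change in this list was over 2-fold with an adjusted p under 0.05, beside 1.15% of all genes on SSD and 1.70% on NCD. By the adjusted p alone, which 13.1% of all genes passed on NCD, 2 genes of the list were higher and 1 lower there. Il1b differed by -0.84 (adjusted p = 0.124) on SSD. The receptor subunits that IL-6 uses, Il6ra and Il6st, differed by -0.09 (adjusted p = 0.755) and -0.07 (adjusted p = 0.706) on SSD.

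Among 24 signal transducers and transcription factors, all tested, 2 were called lower in Klrk1-/- mice on SSD, beside 0.968% of all genes. The 2 were Cebpd (-1.19, adjusted p = 0.0347), a C/EBP factor induced in the acute phase, and the NF-kB subunit Relb (-1.26, adjusted p = 0.0306). Cebpb was lower by less than the fold limit (-0.83, adjusted p = 0.0213), where 2.90% of all genes passed the adjusted p. Cebpd ranged from 158.4 to 373.3 normalized counts in the WT and from 79.7 to 119.7 in the Klrk1-/- mice on SSD, without overlap, as on NCD (148.0 to 228.1 and 73.8 to 133.1). On NCD Cebpd (-0.90, adjusted p = 0.0139) and Stat3 (-0.40, adjusted p = 0.016) were lower in Klrk1-/- mice with an adjusted p under 0.05, and Pias3, an inhibitor of STAT3, was higher (0.40, adjusted p = 0.046). Of all genes, 13.1% passed the adjusted p on NCD, a share near that of this list. Stat3 also fell with SSD in WT mice (-0.54, adjusted p = 0.00151). Socs3, a target and inhibitor of STAT3, overlapped between genotypes on NCD (-0.40, adjusted p = 0.613) and differed by 0.49 (adjusted p = 0.167) on SSD. With SSD in WT mice Relb was the 1 call of the list (1.54, adjusted p = 0.00669), beside 9.01% of all genes.

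Receptors and partners of the members' products were tested for all 22 genes of that list. With SSD in WT mice 3 were called higher, the fatty acid and serum amyloid A receptor Cd36 (2.48, adjusted p = 0.000124), Tlr4 (1.04, adjusted p = 0.00772) and Hmox1. Of all genes, 9.01% were called. By the adjusted p alone 8 of the list were higher and 2 lower, beside 34.9% of all genes in either direction. In Klrk1-/- mice Cd36 was the 1 call (1.09, adjusted p = 0.00123), beside 5.46% of all genes. By the adjusted p alone 6 were higher and 1 lower, beside 29.4% of all genes in either direction. Hmox1, the heme oxygenase that degrades the heme brought in by hemopexin and haptoglobin, rose with SSD in WT mice (1.26, adjusted p = 0.000841) and was lower in Klrk1-/- mice on SSD (-1.01, adjusted p = 0.0461). Cd163, the receptor for haptoglobin bound to hemoglobin, differed between genotypes by 1.04 (adjusted p = 0.174) on SSD and 0.53 (adjusted p = 0.0259) on NCD. Lrp1, the hemopexin receptor, differed by 0.22 (adjusted p = 0.202) on SSD. Tlr2, a receptor that binds serum amyloid A, was lower in Klrk1-/- mice on NCD (-1.20, adjusted p = 0.03), and on SSD the difference was -1.32 (adjusted p = 0.0957).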

How the data were processed

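RNA of whole liver was sequenced as single reads of 100 bases (the study's methods name a total RNA library, the labels an mRNA library). The authors used FastQC for read quality, STAR for alignment to GRCm39 and FeatureCounts with a GENCODE annotation for reads per gene. The deposited signal is a normalized count, reads divided by 1 factor per mouse; how the factors were made is not given in the sources used here. Dividing each mouse by its smallest step gave whole reads for 100% of values (within 0.1 of a read).

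Log2(normalized count + 1) was tested with limma 3.58.1 (trend, R 4.3.3) within each pair of groups, and in all 16 mice for the interaction, over genes with a mean of at least 10. Benjamini-Hochberg adjustment was used, and calls needed an adjusted p under 0.05 and over 2-fold. Fold changes on this scale understate low genes. Exact two-sided permutation allowed no p below 0.0159 (WT diet), 0.0571 (Klrk1-/- diet), 0.0357 (SSD genotype) or 0.0286 (NCD genotype). Alternatives were pseudocounts of 0.5 and 10, no minimum mean or 50, equal totals, edgeR 4.0.16 and DESeq2 1.42.0 on recovered reads, a replicate block, 1 model of all groups, a fold limit of 1.5 and each mouse left out. The named genes are the 10 members, genes of a list in the passage on that list, Klrk1, and the 3 genes most like Saa1, Saa3, Orm2, Hp and Apcs. The members and lists were chosen with earlier results of these data known. The code was tested on simulated data.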

Additional observations from a re-analysis of the deposited data

Results flagged for a closer look

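Within the groups of 4 and 5 mice, each member's log2 values were tested for a mouse far from the rest (30 sets of values, of which chance flags about 1.5). A single value stood out. NCD-fed WT mouse 2 had 1795 normalized counts of Apcs, where the other 3 mice of its group had 2576 to 2765, and the gap was 0.836 of the range of the group. The same mouse was also the lowest of its group for Hp, Hpx, Saa3, Saa4, Orm1 and Orm3.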

How the results depend on the processing

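The 15 called member changes were recomputed 266 times. Direction held each time, and 252 values stayed past both thresholds. The 14 lost calls were all of Saa1, Saa2 and Saa3, most with a mouse left out, and Saa1 lost its diet call in WT mice also under the replicate block (adjusted p = 0.0909). Of 700 recomputed values of the 35 changes that were not called, 15 became calls (Saa2, Orm2, Orm3, Apcs and Saa3) and 32 changed sign. Of 176 recomputed differences in paralog ratios none passed the adjustment and 165 kept their direction. The other 11 concerned differences near 0: Saa1 to Saa2 for the diet in WT mice (-0.081 to 0.23 without 1 mouse) and the genotype on NCD (-0.049 to 0.26), and Orm3 to Orm1 for the diet in Klrk1-/- mice (-0.33 to 0.65, and -0.081 with a pseudocount of 0.5) and the genotype on NCD (-0.35 to 0.39). With a pseudocount of 10 the ratio of Orm3 to Orm1 differed by 0.79 for the diet in Klrk1-/- mice and by -1.02 between genotypes on SSD. Scaling every mouse to the same total moved the median of all genes by 0.342 and 0.253 for the diet in WT and Klrk1-/- mice and by -0.115 on SSD, and relative to it Saa1 was at -1.07 and -1.14 for the diet.

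Over all genes, the calls for the diet in WT mice (1179, of which 800 higher and 379 lower) became 749 with a minimum mean of 50, 1924 with the same total (1673 higher, 251 lower) and 2522 with a fold limit of 1.5, and in Klrk1-/- mice (704) 469 with a minimum of 50 and 1696 at 1.5-fold. On SSD between genotypes (151) they became 96 with a pseudocount of 10, 85 with a minimum of 50, 365 with DESeq2, 332 with the replicate block, 293 with all groups in 1 model and 279 at 1.5-fold, and 35 to 251 without 1 mouse. On NCD (219) they were 744 at 1.5-fold and 132 to 258 without 1 mouse. For the interaction (70) they were 196 with DESeq2, 35 with the block, 111 at 1.5-fold and 28 to 130 without 1 mouse. Members called on SSD numbered 1 to 4 without 1 mouse, and for the interaction 1 with DESeq2 and 0 to 1 without 1 mouse.

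Differences that were near 0 and not called changed sign. With the same total, the WT diet difference was 0.27 for Hp and 0.10 for Hpx, Saa4 on SSD was -0.11, Apcs on NCD -0.019 and the Orm1 interaction -0.007. Saa4 on SSD was -0.021 with edgeR, -0.021 with DESeq2 and -0.13 with the block. Orm1 on SSD was 0.005 with edgeR and 0.006 with DESeq2, and Apcs on NCD -0.006 and -0.010. Without 1 mouse the ranges were -0.14 to 0.07 (Apcs, NCD), -0.57 to 0.37 (Orm3, NCD), -0.24 to 0.13 (Orm1, SSD), -0.073 to 0.11 (Saa4, SSD) and, for the interaction, -0.21 to 0.034 (Hpx), -0.13 to 0.24 (Orm1), -0.33 to 0.16 (Saa1) and -0.72 to 0.054 (Saa2). The cause was not tested.

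Mice of different groups share replicate numbers, but the deviations of same-numbered mice correlated between -0.133 and 0.246 and never above 0.1 in every pair of a comparison, so the numbers were not used as pairs. With the block, 2, 6, 4 and 2 members were called in the 4 comparisons, beside 7.50, 5.60, 2.53 and 2.17% of all genes, and 0 for the interaction, beside 0.268%.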
